A study of Mus musculus with 36 samples.

Results

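Messenger RNA was sequenced from forebrain/midbrain (F/M) and cerebellum (Cb) of mice lacking Tpp1, the gene for the lysosomal peptidase that is lost in late infantile neuronal ceroid lipofuscinosis. The genes described here are 10 that bear midbrain and thalamus labels: the transcription factor genes Six3, Gata3, Gata2, Tfap2d, Pou4f1, Tal1, Barhl2, Lef1 and Tcf7l2, and the glutamate transporter gene Slc17a6. They were taken by name from 55450 annotated genes at 1 month, 53379 at 2 months and 54146 at 3 months, and all 10 passed the filter on low counts at every age, together with 17916, 17229 and 17224 genes in all. Several of them had been chosen because they were low in the Cb libraries of 2-month Tpp1-/- mice, so their values in that comparison are given as a description, with no test.

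The 36 libraries came from Tpp1-/- mice and control siblings of 1, 2 and 3 months, with 3 libraries for each age, region and genotype. The Tpp1-/- line carries a gene-targeted disruption and was kept by crossing heterozygous mice. Controls were labelled wild type, except control replicate 3 of 1 month, which was Tpp1+/- in both regions. No animal had a treatment, and the strain background is not given in the sources used here. The mice of 2 months were all male, while replicate 1 of 1 month and replicate 3 of 3 months were female. The regions were taken as whole pieces, so every value is an average over all cells in the piece.

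Each library held between 10609896 and 29942380 counted reads, with a median of 21049839. Tpp1 itself stood at 16.2 to 20.1, 20.95 to 27.8 and 16.05 to 21.7 CPM (normalised read count, scaled to equal library size) in the Tpp1-/- libraries of 1, 2 and 3 months. The wild-type controls of the same ages had 69.7 to 89.5, 91.5 to 110.8 and 42.1 to 56.1 CPM, and the heterozygous pair had 46.6 and 55.9 CPM. No control overlapped the Tpp1-/- libraries. The granule cell list, 8 cerebellar genes, summed to 4817 CPM or more in all Cb libraries and to 139.9 CPM or less in all F/M libraries, as the region labels say.

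In the developing midbrain and thalamus, selector transcription factors fix which transmitter a neuron will use. Gata2, Gata3 and Tal1 act together in the choice of an inhibitory (GABA) identity, while Pou4f1 and Barhl2 belong to excitatory or projecting neurons. Six3, a homeobox gene, patterns the anterior brain, and Tfap2d, of the AP-2 family, marks neurons of the dorsal midbrain. Tcf7l2 and Lef1 are the nuclear partners of beta-catenin in Wnt signalling, and Tcf7l2 stays on in the adult thalamus. Slc17a6 encodes VGLUT2, the vesicular transporter that loads glutamate in thalamic and brainstem neurons and in the deep nuclei of the cerebellum.

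In GENCODE M21 on GRCm38 the genes are spread over 10 chromosomes. On the plus strand lie Tfap2d (chr1:19103022-19166346), Lef1 (chr3:131110471-131224356), Tal1 (chr4:115056426-115071755), Gata2 (chr6:88193891-88207032), Slc17a6 (chr7:51622006-51671119), Six3 (chr17:85613608-85629302) and Tcf7l2 (chr19:55741820-55933654). On the minus strand lie Gata3 (chr2:9857078-9890034), Barhl2 (chr5:106452523-106458166) and Pou4f1 (chr14:104461676-104467999).

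The 250 bases before a RefSeq start of 5 genes are shown to set genes that were low in the 2-month Tpp1-/- Cb libraries (Gata3, Tfap2d and Tal1) beside genes that were not (Gata2 and Barhl2). They are RefSeq sequences of build GRCm38.p6, read 5′ to 3′ along the strand of the gene. The Gata3 start lies inside the GENCODE span given above, while the other 4 windows end where that span begins. Capitals mark AGATAA or TGATAA, letters that GATA factors bind, and GGGCGG, the core of a GC box, on either strand.
Gata3, chr2:9878601-9878850, minus strand: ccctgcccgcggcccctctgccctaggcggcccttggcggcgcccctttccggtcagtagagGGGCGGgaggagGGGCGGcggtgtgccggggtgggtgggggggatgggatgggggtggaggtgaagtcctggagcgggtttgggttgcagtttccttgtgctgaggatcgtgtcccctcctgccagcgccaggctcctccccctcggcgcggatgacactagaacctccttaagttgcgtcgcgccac
Tal1, chr4:115056176-115056425, plus strand: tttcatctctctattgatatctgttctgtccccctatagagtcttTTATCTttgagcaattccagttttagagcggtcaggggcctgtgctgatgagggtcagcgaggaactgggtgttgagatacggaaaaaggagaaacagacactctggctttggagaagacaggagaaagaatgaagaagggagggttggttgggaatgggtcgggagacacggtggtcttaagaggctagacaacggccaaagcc
Tfap2d, chr1:19102772-19103021, plus strand: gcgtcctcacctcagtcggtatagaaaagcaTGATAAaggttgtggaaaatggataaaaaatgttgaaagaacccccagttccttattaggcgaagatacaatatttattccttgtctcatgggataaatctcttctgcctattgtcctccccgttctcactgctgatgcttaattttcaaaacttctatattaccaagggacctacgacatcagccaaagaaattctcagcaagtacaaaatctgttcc
Gata2, chr6:88193641-88193890, plus strand: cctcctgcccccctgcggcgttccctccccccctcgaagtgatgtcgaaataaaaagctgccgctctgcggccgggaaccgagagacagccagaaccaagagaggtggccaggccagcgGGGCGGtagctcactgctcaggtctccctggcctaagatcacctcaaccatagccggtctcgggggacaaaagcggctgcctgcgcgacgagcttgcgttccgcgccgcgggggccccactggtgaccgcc
Barhl2, chr5:106458167-106458416, minus strand: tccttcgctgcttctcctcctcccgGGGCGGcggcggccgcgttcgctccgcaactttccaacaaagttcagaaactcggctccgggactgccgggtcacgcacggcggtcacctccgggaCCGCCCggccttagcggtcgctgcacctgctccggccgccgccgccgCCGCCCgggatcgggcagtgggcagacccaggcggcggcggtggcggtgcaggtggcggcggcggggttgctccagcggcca

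Tal1 and Tfap2d each held 1 GATA match and no GC box, and had a GC content of 48.8% and 39.6%. Gata3, Gata2 and Barhl2 held 2, 1 and 3 GC boxes and no GATA match, with GC contents of 70.0%, 67.2% and 74.8%. Among 32851 windows of this length before RefSeq starts, 9.99% held AGATAA, 7.94% held TGATAA and 32.7% held GGGCGG on either strand. A match describes the letters only. All 10 genes were found in the RefSeq table, with 19 starts between them. The matches depended on the start shown. A further Tal1 window held no GATA match, 3 GC boxes and a GC content of 62.8%, and a further Tfap2d window held neither. Of the other low genes, the Six3, Pou4f1 and Slc17a6 windows held no GATA match and 1 Tcf7l2 window did. Lef1, which was not among the low genes, had TGATAA in 1 window. In GENCODE M21 the Tal1, Tfap2d, Gata2 and Barhl2 windows lay outside annotated exons, and the Gata3 window overlapped an exon of Gm13256 on the opposite strand.

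In control brain the genes ran over a wide range of levels, and some were higher in Cb than in F/M. Per kilobase of counted exon, Slc17a6 was the highest in F/M, with 17.96 to 23.1 CPM per kb over 9 control libraries, above Tcf7l2 at 3.23 to 5.09 and Six3 at 1.97 to 2.72. Lef1 followed at 0.983 to 1.37 CPM per kb, and its range overlapped that of Tal1, 0.557 to 1.23, which in turn overlapped that of Gata2, 0.606 to 1.16. Tfap2d had 0.395 to 0.859 CPM per kb, Barhl2 0.322 to 0.488, Pou4f1 0.107 to 0.483 and Gata3 0.0976 to 0.545. The 3 highest genes did not overlap each other or the rest, and the others formed a chain of overlapping neighbours.

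In control Cb the order changed at the top. Barhl2, at 12.9 to 19.8 CPM per kb, and Slc17a6, at 10.3 to 18.6, overlapped each other and stood above Tcf7l2 at 3.15 to 4.32 CPM per kb. Tfap2d came next with 0.912 to 2.14, and overlapped Tal1 at 0.499 to 1.05, Gata2 at 0.555 to 0.952 and Six3 at 0.385 to 1.03. Lef1, at 0.379 to 0.818 CPM per kb, Gata3, at 0.172 to 0.537, and Pou4f1, at 0.0482 to 0.513, completed the order.

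**Figure D1:**
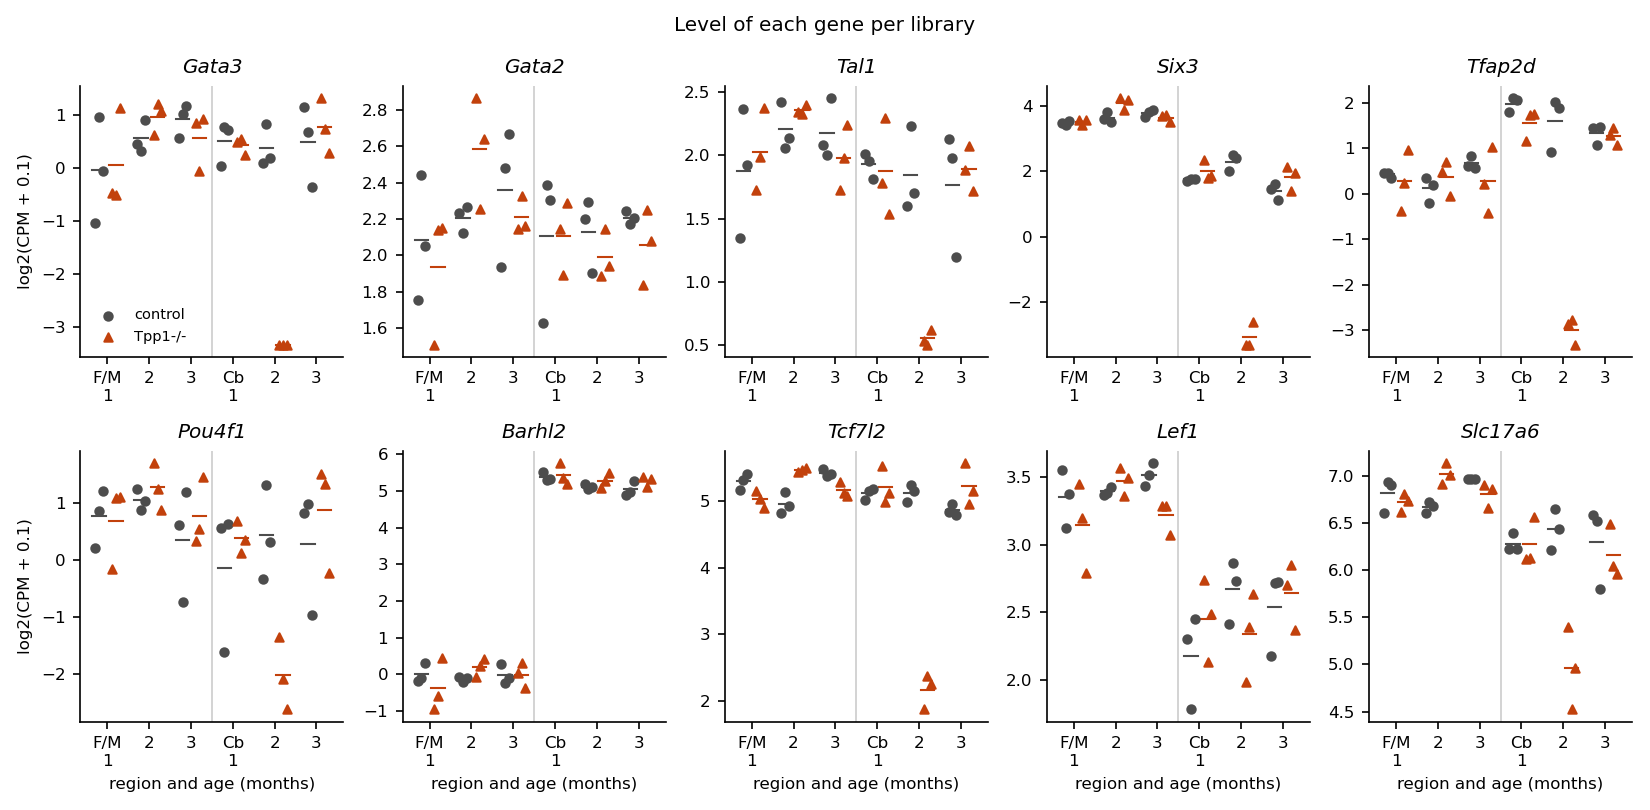
Level of each of the 10 genes in every library, as log2(CPM + 0.1), by region and age in months; circles are control and triangles Tpp1-/- libraries, and dashes are group means of 3. In Cb at 2 months the Tpp1-/- triangles of Gata3, Six3 and Tfap2d lie at or near the value for 0 counts, while those of Gata2, Barhl2 and Lef1 overlap the controls; the vertical axis differs between panels.

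The control regions were compared at 1 and 3 months, which the choice of genes did not use. Barhl2 went against a midbrain label: it had 45.8, 39.2 and 39.9 CPM in the Cb controls of 1 month and 0.777, 0.837 and 1.13 CPM in those of F/M. Every Cb control was far above every F/M control, and the log2 fold change of F/M over Cb was −5.49 (SE, the standard error, 0.25, adjusted p = 4.1e-11 by the edgeR quasi-likelihood test). At 3 months it was −5.18 (SE 0.19, adjusted p = 3.9e-11).

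Tfap2d was also higher in Cb, with 3.36, 4.19 and 4.06 CPM against 1.28, 1.28 and 1.17 CPM in F/M at 1 month. The groups did not overlap, and the log2 fold change was −1.64 (SE 0.28, adjusted p = 0.00017). At 3 months it was −0.72 (SE 0.30, adjusted p = 0.057), from 2.65, 2.02 and 2.69 CPM in Cb and 1.43, 1.68 and 1.38 CPM in F/M. That call was lost on leaving out replicate 1 or 3 of the F/M controls or of the Cb controls, which gave adjusted p values of 0.13 to 0.15.

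Six3 and Lef1 were higher in F/M. At 1 month Six3 stood at 11.1, 10.7 and 11.5 CPM in the F/M controls against 3.20, 3.33 and 3.32 CPM in the Cb controls. Lef1 stood at 11.65, 8.64 and 10.3 CPM against 4.82, 3.33 and 5.37 CPM. Neither gene overlapped between the regions. The log2 fold change of Six3 was 1.76 at 1 month (SE 0.15, adjusted p = 7.9e-08) and 2.44 at 3 months (SE 0.18, adjusted p = 6.7e-08). That of Lef1 was 1.16 (SE 0.21, adjusted p = 0.00026) and 0.97 (SE 0.17, adjusted p = 0.00023).

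Slc17a6 and Tcf7l2 leaned to F/M by less. The Slc17a6 difference was 0.54 on the log2 scale at 1 month (SE 0.12, adjusted p = 0.0014), under the required 1.5-fold, and 0.62 at 3 months (SE 0.18, adjusted p = 0.01). At 1 month it passed both thresholds without replicate 1 of the F/M controls, at 0.64, or without replicate 2 of the Cb controls, at 0.60. Without replicate 3 of the 3-month Cb controls, which held 55.6 CPM against 95.8 and 91.8 in the others, the 3-month difference was 0.41 and no longer called. Tcf7l2 differed by 0.18 at 1 month (SE 0.13, adjusted p = 0.25) and by 0.56 at 3 months (SE 0.13, adjusted p = 0.0029), also under 1.5-fold. Gata3, Gata2, Tal1 and Pou4f1 did not pass the test between regions at either age, with log2 differences from −0.36 to 0.69 and SEs of 0.19 to 0.59.

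Counted together, 4 of the 10 genes differed between the control regions at 1 month and 5 at 3 months, where 36.9% and 37.7% of all genes tested did. At both ages 2 of them were higher in Cb, beside 15.8% and 17.8% of all genes, and the others were higher in F/M, beside 21.1% and 19.9%. The share called is near that of all genes.

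**Figure D2:**
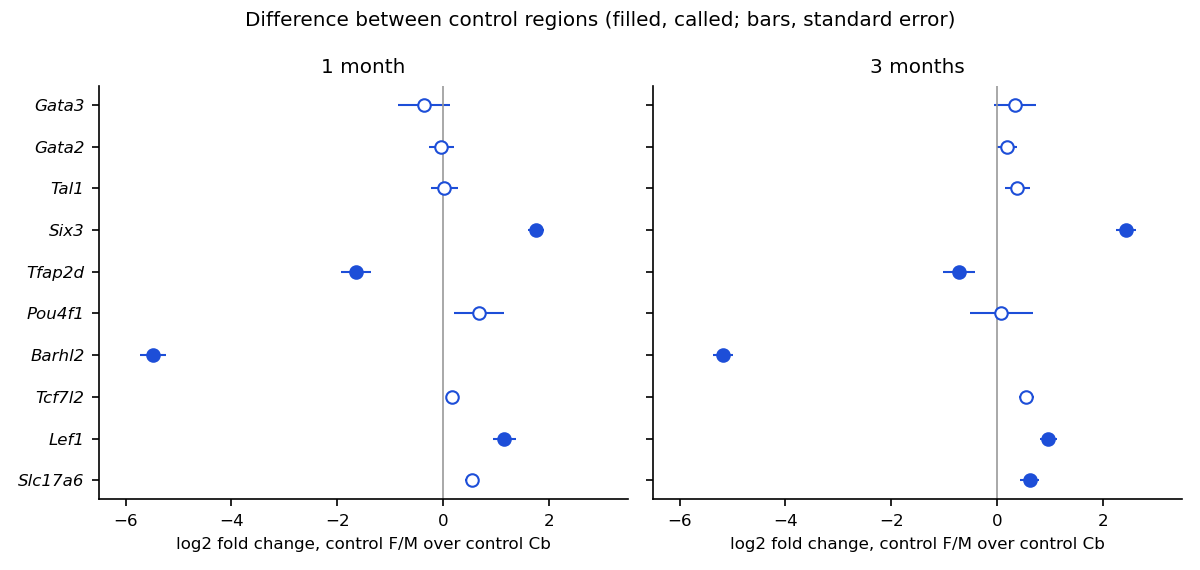
Log2 fold change of control F/M over control Cb at 1 and 3 months for each gene, with standard errors; filled points passed an adjusted p of 0.1 and a 1.5-fold change. Six3 and Lef1 lie to the right of 0 and Barhl2 and Tfap2d to the left at both ages.

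In Cb at 2 months, 7 of the 10 genes were lower in every Tpp1-/- library than in every control. Over all genes tested, 10.5% did not overlap in that direction and 1.8% were called lower. Since the genes were chosen partly on this comparison, nothing is read from that count. In bulk tissue, fewer cells of a type and less RNA per cell cannot be told apart. The part that the place of the cut between the regions had in these values was not tested.

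Among the inhibitory selector genes, Gata3 had 0, 0 and 0 CPM in the Tpp1-/- Cb libraries against 0.978, 1.67 and 1.05 CPM in the controls. No read was counted in any of the 3 Tpp1-/- libraries and 75 were counted in the controls, so the level was at least 27.5-fold lower, taking 3 counts over the group as the limit. Tal1, its partner, had 1.35, 1.32 and 1.44 CPM against 2.93, 4.61 and 3.15 CPM. The groups did not overlap, and Tal1 kept a mean of 1.37 ± 0.0626 CPM (SD, n = 3), with a log2 fold change of −1.40 (SE 0.20).

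Gata2, the paralogue of Gata3, behaved otherwise, with 3.60, 4.32 and 3.75 CPM in Tpp1-/- Cb against 4.49, 4.79 and 3.65 CPM in the controls. These ranges overlapped, and the log2 fold change was −0.15 (SE 0.17). Of the 3 genes that are known to act together, Gata3 was thus undetected, Tal1 lower, and Gata2 overlapped the controls, with 1 Tpp1-/- library just below the lowest of them.

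The homeobox gene Six3 had 0, 0 and 0.0625 CPM in Tpp1-/- Cb and 3.91, 5.61 and 5.19 CPM in the controls. A single read against 296 gave a ratio of 325.7 (95% counting interval 58.01 to 12910). Six3os1, an antisense noncoding RNA whose annotated span overlaps that of Six3 on chromosome 17 and which was named after its values were seen, stood at 0.0364, 0.0908 and 0 CPM against 2.59, 2.58 and 2.45 CPM. Both transcripts of the locus were thus near the limit of detection in the same libraries.

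Tfap2d followed Six3 with 0.0364, 0.0454 and 0 CPM against 1.78, 3.98 and 3.60 CPM. The ratio from 2 reads against 191 was 105.1 (95% counting interval 28.7 to 874.0). Pou4f1, a POU-domain factor of habenula and dorsal midbrain neurons, had 0.291, 0.136 and 0.0625 CPM against 0.690, 2.40 and 1.15 CPM. Its Tpp1-/- libraries held 8, 3 and 1 reads, and the log2 fold change was −2.96 (SE 0.52). Barhl2, also a homeobox gene, had 33.95, 38.3 and 44.7 CPM against 36.2, 33.2 and 34.55 CPM, and the groups overlapped.

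Of the Wnt-responsive factors, Tcf7l2 had 3.57, 5.09 and 4.68 CPM in Tpp1-/- Cb and 31.8, 37.7 and 35.55 CPM in the controls. The 3 Tpp1-/- libraries lay far below all controls, at a log2 fold change of −3.00 (SE 0.12), and each held 75 to 112 reads of the gene. The group means were 4.45 ± 0.788 and 35.0 ± 2.99 CPM (SD, n = 3). Its family member Lef1 had 3.86, 5.13 and 6.12 CPM against 5.23, 7.19 and 6.54 CPM, overlapping groups and a log2 fold change of −0.37 (SE 0.15). Slc17a6 had 41.9, 22.9 and 31.1 CPM against 73.9, 100.4 and 86.7 CPM. All 3 Tpp1-/- libraries were lower, by −1.44 on the log2 scale (SE 0.15), and the gene stood at 4.24 to 7.76 CPM per kb there, below Barhl2.

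The 15 other Cb libraries give the range that these genes had elsewhere in Cb. For each of the 7 genes except Pou4f1, the 3 Tpp1-/- Cb libraries of 2 months lay below all 15 other Cb libraries. Tcf7l2 had 27.5 to 47.5 CPM in those 15, Six3 2.10 to 5.61, Gata3 0.683 to 2.39, Tfap2d 1.78 to 4.19, Tal1 2.19 to 4.82 and Slc17a6 55.6 to 100.4 CPM. For Pou4f1, 0.225 CPM in control replicate 2 of 1 month fell within the range of those 3. The mean log2(CPM + 0.1) of the 10 genes was 0.59, 0.57 and 0.60 in the 3 libraries and 2.33 to 3.10 in the others.

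**Figure D3:**
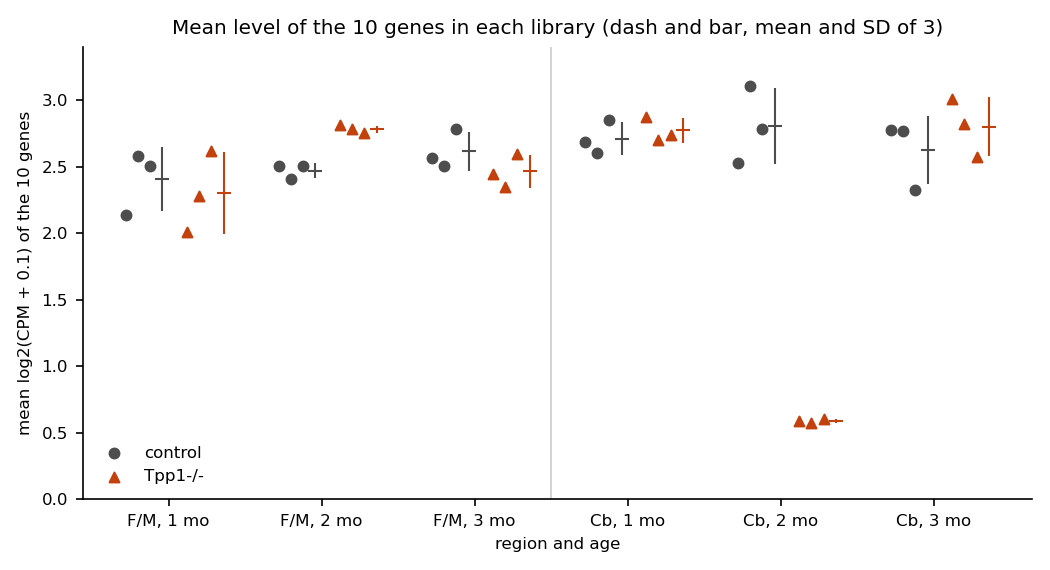
Mean of log2(CPM + 0.1) over the 10 genes in each of the 36 libraries, by region and age; circles are control, triangles Tpp1-/- libraries, and the dash with bar is the mean and SD of 3. The Tpp1-/- Cb libraries of 2 months lie at 0.57 to 0.60 and all other Cb libraries at 2.33 or above.

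Within the 15 other Cb libraries the genes differed in how much they varied. The highest over the lowest value was 1.71 for Gata2, 1.73 for Tcf7l2, 1.81 for Slc17a6 and 1.82 for Barhl2. It reached 3.5 for Gata3 and 12.2 for Pou4f1, which were counted by as few as 15 and 5 reads. A single library, control replicate 3 of 3 months, held the lowest value of 5 of the 10 genes: Gata3, Six3, Slc17a6, Tal1 and Tcf7l2.

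The F/M libraries of 2 months, which the choice of genes did not use, leaned the other way. All 10 genes had a log2 fold change above 0 in Tpp1-/- F/M, between 0.08 and 0.50 with a median of 0.34, where 50.8% of all genes tested were above 0 and their median was 0.00. None of the 10 was called by edgeR with the 1.5-fold minimum, or by DESeq2, beside 0.737% of all genes by edgeR. At an unadjusted p of 0.05, 4 of the 10 passed, beside 16.9% of all genes. Genes measured in the same libraries are not independent, so the count of 10 is given as a description.

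Tcf7l2 had 43.3, 44.2 and 45.3 CPM in Tpp1-/- F/M and 28.2, 35.1 and 30.5 CPM in the controls. Every Tpp1-/- library was above every control, at a log2 fold change of 0.50 (SE 0.10, adjusted p = 0.021 by edgeR), short of 1.5-fold. Without control replicate 2 it was 0.59, which passed both thresholds (adjusted p = 0.0052).

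Six3 had 18.9, 14.6 and 18.1 CPM against 12.04, 14.2 and 11.4 CPM, with no overlap and a log2 fold change of 0.45 (SE 0.13, adjusted p = 0.10). Slc17a6 had 120.3, 140.2 and 128.3 CPM against 97.2, 105.2 and 102.4 CPM, again with no overlap and a log2 fold change of 0.35 (SE 0.14, adjusted p = 0.21). Barhl2 had 0.8469, 1.07 and 1.24 CPM against 0.8464, 0.773 and 0.838 CPM, so that the lowest Tpp1-/- and the highest control library nearly met, and was the fourth gene counted as not overlapping. Over all genes 9.46% did not overlap in that direction.

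The other 6 genes overlapped between the genotypes in F/M. Gata2 had 7.17, 4.67 and 6.12 CPM against 4.61, 4.25 and 4.71 CPM, a log2 fold change of 0.41 (SE 0.16, adjusted p = 0.21). Gata3, Tal1, Tfap2d, Pou4f1 and Lef1 had log2 fold changes of 0.08 to 0.41 with adjusted p values of 0.50 to 0.81.

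**Figure D4:**
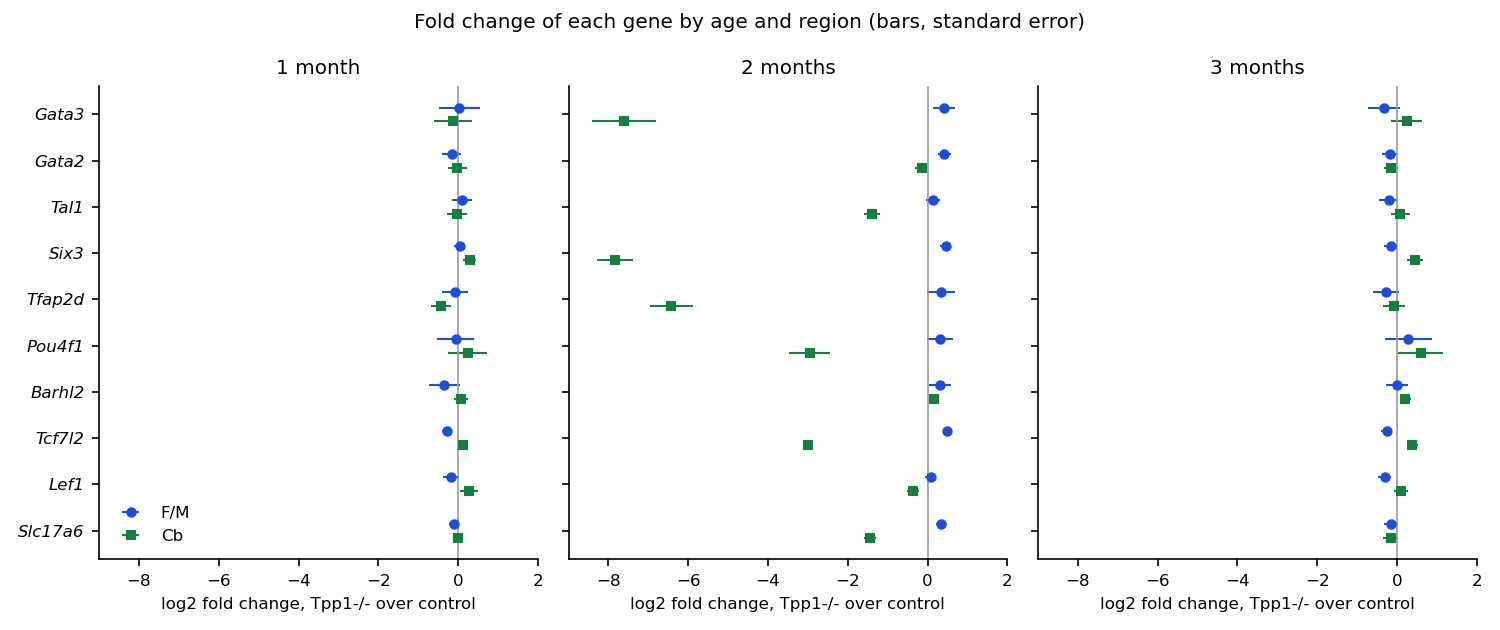
Log2 fold change of Tpp1-/- over control for each gene in F/M (circles) and Cb (squares) at 1, 2 and 3 months, with standard errors. At 2 months the F/M circles lie between 0.08 and 0.50 and 7 of the Cb squares at −1.40 or below, while at 1 and 3 months all values lie within 0.6 of 0.

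At 1 month none of the 10 genes was called in F/M or in Cb by edgeR or DESeq2, and edgeR called 0.0112% of all genes in each region. In F/M 1 of the 10 genes passed an unadjusted p of 0.05, beside 1.89% of all genes, and in Cb none did, beside 7.66%. That gene was Tcf7l2, with 35.45, 32.8 and 29.6 CPM in Tpp1-/- F/M and 36.1, 39.9 and 42.3 CPM in the controls. The groups did not overlap, as for 6.49% of all genes in that direction, and the log2 fold change was −0.27 (SE 0.13, adjusted p = 1.0). In Cb, Six3 was higher in every Tpp1-/- library, 3.39 to 4.99 CPM against 3.20 to 3.33, and Tfap2d lower, 2.14 to 3.30 CPM against 3.36 to 4.19, beside 4.26% and 3.71% of all genes. Their log2 fold changes were 0.29 (SE 0.16, adjusted p = 0.64) and −0.43 (SE 0.26, adjusted p = 0.65).

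At 3 months none of the 10 genes was called in either region by edgeR or DESeq2, where edgeR called 0.464% of all genes in F/M and 0.859% in Cb. In Cb, Tcf7l2 had 47.5, 31.1 and 35.6 CPM in Tpp1-/- libraries and 28.6, 31.1 and 27.5 CPM in the controls. All 3 lay above the controls, 1 of them by a small margin, as did 4.46% of all genes, and the log2 fold change was 0.39 (SE 0.13, unadjusted p = 0.011, adjusted p = 0.45). Six3 was the other gene to pass an unadjusted p of 0.05 there, beside 6.49% of all genes, at a log2 fold change of 0.46 (SE 0.20, adjusted p = 0.70). Its levels of 4.27, 2.54 and 3.755 CPM overlapped the 2.65, 2.94 and 2.10 CPM of the controls.

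In F/M at 3 months, none of the 10 genes passed an unadjusted p of 0.05, beside 5.94% of all genes. Tcf7l2, Lef1 and Slc17a6 were each lower in every Tpp1-/- library, which held for 12.3% of all genes. Tcf7l2 had 39.1, 34.8 and 33.7 CPM against 44.5, 41.6 and 42.3 CPM, a log2 fold change of −0.25 (SE 0.13, adjusted p = 0.91). Lef1 and Slc17a6 had log2 fold changes of −0.30 (SE 0.16, adjusted p = 0.93) and −0.15 (SE 0.18, adjusted p = 1.0).

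Other regional genes differed in the same 3-month libraries. In F/M the list of other thalamus and habenula genes summed to 226.2 to 275.2 CPM in Tpp1-/- mice and 333.8 to 348.9 CPM in controls, and 8 of its 14 genes were lower and 2 higher without overlap, beside 12.3% and 11.8% of all genes. Under an unadjusted p of 0.05 were 7 genes, 6 of them lower and 1, Chrnb4, higher, beside 5.94% of all genes in either direction. By edgeR 1 gene was called lower, beside 0.0523% of all genes, and by DESeq2 2 were. Prkcd, a kinase gene of thalamic neurons, was called lower there, at 38.7 to 62.6 against 89.8 to 103.1 CPM and a log2 fold change of −0.81 (SE 0.15, adjusted p = 0.036). That call was lost without control replicate 1 or 2, with adjusted p values up to 0.20. Lists of other cell types were lower there too. The oligodendrocyte genes summed to 4097 to 4652 against 4930 to 5107 CPM, without overlap. The endothelial and blood genes summed to 216.0 to 236.8 against 264.5 to 281.4 CPM, also without overlap. The choroid plexus sums overlapped, at 558.3 to 703.4 against 609.6 to 767.0 CPM.

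In Cb at 3 months the hindbrain list summed to 25.7 to 44.3 CPM in Tpp1-/- mice and 59.99 to 97.0 CPM in controls, and 2 of its 5 tested genes were called lower by edgeR and 1 by DESeq2, beside 0.186% of all genes by edgeR. Dbh, an enzyme gene of noradrenaline neurons, had a log2 fold change of −3.43 (SE 0.63, adjusted p = 0.019), and Slc6a2, their transporter gene, one of −4.43 (SE 0.88, adjusted p = 0.031). Nr4a2, of the dopamine neuron list, was called lower at −0.65 (SE 0.13, adjusted p = 0.034). Dbh lost its call without Tpp1-/- replicate 3, Slc6a2 by DESeq2 and without control replicate 1 or 2 or Tpp1-/- replicate 2 or 3, and Nr4a2 without control replicate 3 or Tpp1-/- replicate 1. Of the forebrain list, 8 of 9 tested genes lay below 0 in Cb, with a median log2 fold change of −0.46. None was called by edgeR and 1 was called lower by DESeq2. Under an unadjusted p of 0.05 by edgeR were 3, beside 6.49% of all genes. The endothelial and blood genes summed to 255.6 to 263.5 against 282.1 to 420.5 CPM there, without overlap. The part of the tissue of any of these genes in the 3-month values of the 10 genes was not tested.

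The effect of genotype was compared between the regions at 1 and 3 months. No gene of the set passed an adjusted p of 0.1 in this interaction by edgeR, which called 0.0% and 0.00581% of all genes, nor did any by DESeq2. At 1 month libraries of the same number were taken as paired, from the data alone. A replicate block there gave 5 calls over all genes against 0 without it, none of them among the 10. Tcf7l2 had the smallest p of the 10 at both ages. Its log2 fold change was larger in Cb than in F/M by 0.39 at 1 month (SE 0.18, unadjusted p = 0.047) and by 0.65 at 3 months (SE 0.19, unadjusted p = 0.0041), with an adjusted p of 1.0 each time. Six3 was the other gene of the set under an unadjusted p of 0.05, at 3 months, with a difference of 0.61 (SE 0.25, adjusted p = 1.0). The same difference at 2 months rests on the libraries used to choose the genes and was not tested.

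Further genes of the same regions and pathways were taken from lists that were also chosen with earlier results of these data known. Their counts in Cb at 2 months are therefore given as a description. In Cb at 2 months the list of 15 other midbrain transcription factors held 12 tested genes, of which 5 were called lower by edgeR and by DESeq2 and none higher, beside 1.8% and 0.25% of all genes by edgeR. Without overlap 5 were lower and 2 higher, beside 10.5% and 7.65% of all genes. The median log2 fold change of the 12 genes was −0.45, beside 0.00 over all genes. Pax7, a marker of the dorsal midbrain, was at 0 to 0.0728 CPM in Tpp1-/- Cb and 0.899 to 1.27 CPM in the controls. Pou4f2, the sister gene of Pou4f1, had 0.0364 to 0.2499 against 1.32 to 3.17 CPM, and En1, which patterns the midbrain and rostral hindbrain, 1.67 to 3.497 against 4.89 to 5.83 CPM. Sox14, of inhibitory midbrain neurons, had 0.146 to 0.187 against 0.805 to 0.995 CPM. These 4 did not overlap between the groups. The same list summed to 34.0 to 36.7 CPM in the Tpp1-/- libraries and 37.0 to 41.0 CPM in the controls, and Otx2, which the choroid plexus also expresses, made up 20.2 to 21.5 and 18.5 to 19.1 CPM of it.

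All 14 other thalamus and habenula genes were tested in Cb at 2 months. By edgeR 2 were called lower and none higher, beside 1.8% and 0.25% of all genes. Without overlap 3 were lower and 2 higher, beside 10.5% and 7.65%. The median log2 fold change was −0.03. The list's sums overlapped, at 212.2 to 225.7 CPM in Tpp1-/- libraries and 221.3 to 229.3 CPM in controls. Lhx9, a LIM homeobox gene of the caudal thalamus and midbrain, had 1.14 to 1.57 CPM in Tpp1-/- Cb and 13.1 to 18.3 CPM in the controls, a log2 fold change of −3.49 (SE 0.18). Chrna3, a nicotinic receptor subunit of the habenula, had 1.41 to 2.22 against 3.05 to 3.12 CPM, a log2 fold change of −0.78 (SE 0.20). Neither gene overlapped between the groups. The Chrna3 call was lost without control replicate 2 or 3 or without Tpp1-/- replicate 2 or 3, with adjusted p values up to 0.23.

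The lists of partners, pathway genes, paralogues and dopamine neuron genes held no call in that comparison, although Pou4f2, a relative of Pou4f1 held in the midbrain list, was called as given above. None of 9 tested partners of the Gata and Tal factors, 10 Wnt and TCF family genes, 9 paralogues or 6 dopamine neuron genes passed in either direction by edgeR or DESeq2, and 0, 0, 1 and 2 of them passed an unadjusted p of 0.05, beside 9.67% of all genes. The bHLH genes Tcf4 and Tcf12, whose products pair with Tal1, had log2 fold changes of 0.10 (SE 0.07) and 0.12 (SE 0.07). Ctnnb1, the gene for beta-catenin, and Axin2, a direct Wnt target, had 0.11 (SE 0.06) and 0.00 (SE 0.08). Slc17a7, which encodes the glutamate transporter VGLUT1 of granule cells, was at 515.1 ± 13.3 CPM in Tpp1-/- Cb and 511.8 ± 34.4 CPM in control Cb (SD, n = 3). Tfap2b, the relative of Tfap2d, had a log2 fold change of 0.02 (SE 0.11). Aldh1a1 and Nr4a2, the most abundant dopamine neuron genes, had 0.16 (SE 0.07) and −0.01 (SE 0.18).

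Markers of other tissue pieces and cell types were read in the same libraries. The granule cell list summed to 6023 to 6556 CPM in Tpp1-/- Cb of 2 months and 5829 to 6025 CPM in its controls, and none of its 8 genes was called, with Cbln3 and Zic1 at log2 fold changes of 0.19 (SE 0.07) and −0.02 (SE 0.09). The 7 Purkinje cell genes summed to 7633 to 9110 against 7217 to 7399 CPM, with no overlap, and 0 were called, the most abundant being Itpr1 at 0.27 (SE 0.10) and Car8 at 0.09 (SE 0.08). Forebrain genes, 10 in the list, summed to 141.1 to 158.2 against 146.9 to 156.0 CPM, and 0 were called, with Ppp1r1b at 0.00 (SE 0.08) and Neurod6 at 0.22 (SE 0.10). DESeq2 called none of these genes either, while 2 of each list passed an unadjusted p of 0.05. The 6 oligodendrocyte genes summed to 4405 to 5674 against 5266 to 5638 CPM, with Mbp, a myelin protein gene, at −0.15 (SE 0.11). The 8 endothelial and blood genes summed to 281.7 to 338.9 against 286.6 to 412.2 CPM, led by Flt1 at 0.03 (SE 0.11) and Hbb-bs at −0.47 (SE 0.23). Neither list held a call by edgeR or DESeq2, with 2 and 1 genes under an unadjusted p of 0.05. The part of any of these cells in the low values of the 10 genes was not tested.

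All 8 choroid plexus genes were higher in every Tpp1-/- Cb library than in every control at 2 months, beside 7.65% of all genes, and 3 of them were called higher, beside 0.25%: Aqp1, a water channel, Prlr, the prolactin receptor, and Kl, which encodes klotho. The list summed to 1578 to 1763 CPM against 971.1 to 1265 CPM. The Kl call was lost by DESeq2, with a replicate block and without control replicate 2 or 3 or Tpp1-/- replicate 1 or 3. None of the 5 tested hindbrain genes was called by edgeR or DESeq2, and 1 passed an unadjusted p of 0.05, with Slc6a5 at 0.29 (SE 0.14) and Pax2 at 0.09 (SE 0.15). The list summed to 50.1 to 76.0 against 50.7 to 56.3 CPM. Hoxa2, named after its values were seen, which is expressed behind the midbrain, was at 0.327, 0.0908 and 0.0625 CPM in Tpp1-/- Cb and at 0 in all 3 controls. These values are near the floor, and Hoxa2 was not among the tested genes. Tph2 of the same list, also named after its values were seen, went the other way. It had 0.727 to 1.02 CPM in Tpp1-/- Cb against 1.21 to 1.55 CPM in the controls, without overlap. The part of choroid plexus or hindbrain tissue in the low values was not tested.

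**Figure D5:**
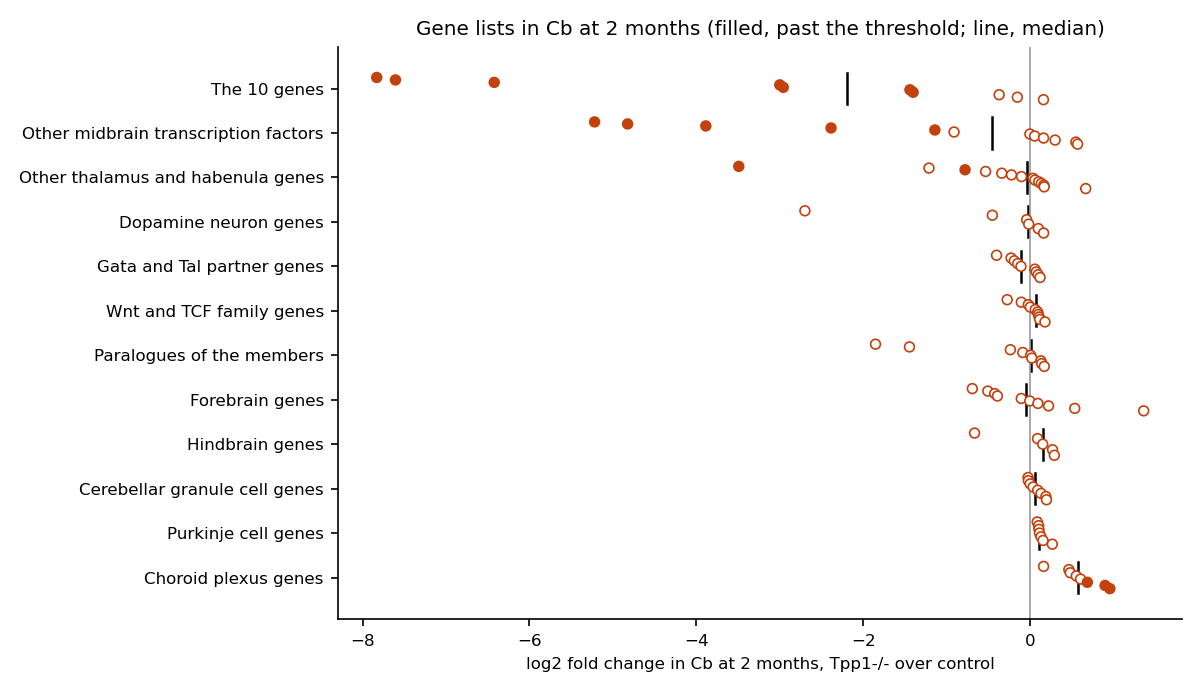
Log2 fold change of Tpp1-/- over control in Cb at 2 months for the tested genes of the lists shown, 1 point per gene; filled points passed an adjusted p of 0.1 and a 1.5-fold change, and lines are list medians. The 10 genes were chosen partly on these values; among the other lists, called genes lie left of 0 in the 2 midbrain and thalamus lists and right of 0 in the choroid plexus list.

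The same lists were read in F/M at 2 months, beside the small upward differences of the 10 genes. The 12 tested genes of the other midbrain list had a median log2 fold change of 0.47, with 10 above 0, beside 50.8% of all genes. By edgeR 1 was called, higher, beside 0.65% of all genes called in that direction, and by DESeq2 none, with 4 under an unadjusted p of 0.05 by edgeR, beside 16.9% of all genes. The list summed to 22.5 to 25.25 CPM in Tpp1-/- F/M against 15.7 to 18.3 CPM in the controls. The dopamine neuron list summed to 204.7 to 218.0 against 176.1 to 182.6 CPM and held no call by edgeR or DESeq2, with 3 of 6 genes under an unadjusted p of 0.05, beside the same 16.9%, and with Aldh1a1 and Nr4a2 at 0.35 (SE 0.08) and −0.18 (SE 0.16). The sums of the midbrain and dopamine lists did not overlap between the genotypes. Those of the other thalamus and habenula list did, at 274.7 to 346.3 CPM in Tpp1-/- F/M against 248.7 to 307.5 CPM in the controls. Of its 14 genes 9 lay above 0, with a median of 0.16 and no call by edgeR or DESeq2. Under an unadjusted p of 0.05 by edgeR were 3, beside 16.9% of all genes.

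Cerebellar and hindbrain genes, which are scarce in F/M, were read too. The granule cell list summed to 114.6 to 127.3 against 94.2 to 112.7 CPM, without overlap, and held no call by edgeR or DESeq2, with 4 of 8 genes under an unadjusted p of 0.05 and with Zic1 and Cbln1 at 0.34 (SE 0.10) and 0.19 (SE 0.08). Of 7 Purkinje cell genes 1 was called higher, Ppp1r17, at 1.64 to 2.20 against 0.564 to 0.918 CPM and a log2 fold change of 1.36 (SE 0.23, adjusted p = 0.012). Of the hindbrain list, 2 of 5 tested genes were called higher, beside 0.65% of all genes: Slc6a5, the glycine transporter of inhibitory brainstem neurons, at 1.495 to 4.04 CPM against 0.290 to 0.846, and Tph2, of serotonin neurons, at 2.89 to 13.8 CPM against 1.79 to 3.01. The hindbrain list summed to 4.73 to 20.8 CPM in Tpp1-/- F/M and 2.37 to 4.33 CPM in the controls, and Hoxa2 was at 0 in all 6 libraries. The Tph2 call was lost without control replicate 3 or Tpp1-/- replicate 3. The choroid plexus list had 4 of 8 genes called higher by edgeR, Prlr, Kl, Clic6 and Aqp1, and 3 by DESeq2, which did not call Clic6, and summed to 537.3 to 719.1 against 244.9 to 629.2 CPM. Prlr kept its call with each library left out, and the other 3 lost theirs without control replicate 3, Tpp1-/- replicate 1 or Tpp1-/- replicate 3, Clic6 and Aqp1 also without control replicate 1. The forebrain list summed to 837.7 to 920.6 CPM against 951.8 to 972.3 CPM, without overlap, and none of its 10 genes was called by edgeR or DESeq2, with Ppp1r1b at −0.06 (SE 0.08) and 3 under an unadjusted p of 0.05. Their part in the F/M values of the 10 genes was not tested.

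Among relatives, Barhl1 and Tfap2b were called higher in F/M at 2 months, at log2 fold changes of 1.24 (SE 0.31, adjusted p = 0.059) and 0.71 (SE 0.20, adjusted p = 0.082). Both are far more abundant in Cb than in F/M, Tfap2b at 57.4 ± 1.97 CPM in control Cb (SD, n = 3) against 3.06 ± 0.675 in control F/M. Sox14, a midbrain and thalamus factor of inhibitory neurons, was called at 1.35 (SE 0.38, adjusted p = 0.089) by edgeR, while DESeq2 gave it no adjusted p. Barhl1 lost its call without control replicate 2 or 3 or Tpp1-/- replicate 1 or 3, Tfap2b without any library but control replicate 1, and Sox14 without control replicate 3 or Tpp1-/- replicate 1 or 3, with adjusted p values up to 0.29, 0.22 and 0.31.

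The genes whose pattern over the 18 Cb libraries was most like the mean of the 10 were sought among 14147 others, by the root mean square difference of log2 CPM after centring each age. That mean fell most in the 3 libraries used to choose the genes, so near genes are low there by construction. Sox14 was nearest, at 0.186 log2 units, with 0.146, 0.182 and 0.187 CPM in the 3 low libraries and 0.592 to 1.13 CPM in the 15 others. Nr2e1, a nuclear receptor gene of neural stem cells, followed at 0.193 and was at 0 in the 3 libraries against 0.316 to 0.789 CPM. Camkv, Pak6 and Ldb2 came next, at 0.209, 0.215 and 0.224. Unlike Sox14, which had 0.208 to 1.91 CPM in F/M, these 4 genes were much higher there, Camkv reaching 379.2 to 511.6 CPM in F/M against 14.6 to 30.6 CPM in the 15 Cb libraries.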

How the data were processed

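The files that the authors deposited hold whole-number read counts per gene, not normalized, for 36 libraries of stranded mRNA (single reads of 50 nucleotides). Per the submitters' processing notes, reads were aligned to mm10 with STAR 2.5.2b. Per the file headers, featureCounts was version 1.6.3 with GENCODE M21 and strand setting 1 at 1 month, 1.6.2 with M16 and setting 2 at 2 months, and 1.6.2 with M18 and setting 1 at 3 months. Antisense neighbours of well-expressed genes had a median read density of 0.00722, 0.00372 and 0.00707 of that gene, so counts kept the strand at each age. Tests were made within an age, and levels set across ages carry the annotation difference.

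The 10 genes and the other lists were chosen with earlier results of these data known. Each age was fitted as 1 model over its 12 libraries in edgeR 4.0.16 (quasi-likelihood, TMM, filterByExpr) in R 4.3.3, with Benjamini-Hochberg adjustment over all genes tested. A gene was called at an adjusted p under 0.1 and at least 1.5-fold, and a regional difference of the genotype effect at the adjusted p alone. The fit was tested on simulated data. CPM uses TMM-scaled totals, CPM per kb divides by counted exon length, and mean log2 levels add 0.1 CPM. Exact 95% intervals of count ratios cover counting error only. Replicates were biological triplicates.

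Alternatives were DESeq2 1.42.0, other scalings, no filter, only the libraries compared, a replicate block and leaving out each library. Of each other list, called genes were named, at most 4 by smallest adjusted p, or else the 2 of highest mean CPM, and of genes alike the 5 nearest. Otx2 was named after its values were seen, lists are described only in comparisons where their values stand beside those of the 10 genes, and results of 3 genes are not reported here. Same-numbered F/M and Cb libraries deviated together at 1 month, with correlations of 0.170 to 0.260 in controls and 0.101 to 0.198 in Tpp1-/- mice, and were taken as paired there, from the data alone. At 2 months the Tpp1-/- libraries also correlated best with their own number, all 6 of them, at 0.093 to 0.142. The controls of that age did not, at −0.053 to 0.001.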

Additional observations from a re-analysis of the deposited data

Results flagged for a closer look

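At 2 months, 3 of the 10 genes had all Tpp1-/- libraries below all controls in Cb and above all controls in F/M. Six3 had a log2 fold change of −7.83 in Cb and 0.45 in F/M, Tcf7l2 one of −3.00 and 0.50, and Slc17a6 one of −1.44 and 0.35. None of the 3 was called in F/M, where 9.46% of all genes lay without overlap in that direction. The Cb values, where 10.5% of all genes lay below the controls without overlap, served to choose the genes, and the difference between the regions was not tested at this age.

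At 3 months Tcf7l2 had the reverse signs, with all Tpp1-/- libraries above the controls in Cb, at 0.39, and below them in F/M, at −0.25. The interaction test of edgeR gave an adjusted p of 1.0 for that difference, so it did not pass when all genes were counted.

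Groups of 3 libraries were too small for the test of single outlying libraries.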

How the results depend on the processing

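Cb at 2 months, whose libraries served to choose the genes, is left out of the counts of calls among the 10. Elsewhere the count of called genes among the 10 kept its value, or stayed within 1.5 times of it, under the alternatives that kept every library. With each library left out in turn, the count in F/M at 2 months lay between 0 and 1 and the count between control regions at 3 months between 3 and 6, against 0 and 5. The single call was Tcf7l2 without control replicate 2 of F/M, and the count of 3 came without control replicate 3 of Cb, where Tfap2d and Slc17a6 were lost. Signs were checked for all 10 genes between genotypes at 2 months and for some of them in the other comparisons, and none changed. Values near 0 at 1 and 3 months were not checked, such as Slc17a6 in Cb at 1 month (log2 fold change 0.0065, SE 0.12). Between control regions at 3 months, Tcf7l2 was called at 0.59 by DESeq2 and with RLE size factors, and Slc17a6 lost its call at 0.51 with library totals. On unscaled counts, which carry the depth of each library, the mean log2 level of the 10 genes in Tpp1-/- minus control became −3.20 in Cb at 2 months against −2.22, −0.12 in F/M at 2 months against 0.31, and −0.13 in Cb at 1 month against 0.06.

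With a replicate block the calls among the 10 numbered 4 and 5 between control regions at 1 and 3 months and 0 in the other comparisons, as without it. Over all genes the block gave 124 calls against 127 for F/M and 306 against 353 for Cb at 2 months. Between genotypes same-numbered libraries had correlations from −0.147 to 0.31, and in no age and region did all 6 correlate best with their own number.

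Over all genes, calls across the alternatives ranged from 1 to 16 in F/M and 1 to 272 in Cb at 1 month (2 each), from 20 to 352 in F/M at 2 months (127), and from 34 to 309 in F/M and 46 to 296 in Cb at 3 months (80 and 148). For the regional difference they ranged from 0 to 28 at 1 month (0) and from 0 to 75 at 3 months (1). With 0 to 8 reads per Tpp1-/- Cb library of 2 months, fold changes of Gata3, Six3, Tfap2d and Pou4f1 are limited by counting error. Without Tpp1-/- replicate 1 or 3, Six3 was at −7.23 or −9.61, and Pou4f1 was at −2.32 without control replicate 2 and −3.71 without Tpp1-/- replicate 1.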
